A study of Mus musculus with 18 samples.

Results

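The genes described here are 7 members of the small heat shock protein family (Hspb1, Hspb2, Hspb3, Hspb6, Hspb7, Hspb8 and Cryab, also called HspB5) and Bag3, the co-chaperone that binds Hspb8. They were chosen by name, with earlier results of these data known, so their shares beside those of all genes are descriptions. They are 8 of the 38355 genes in the tables, and all 8 passed the low-count filter that left 14876 genes for testing. RNA of the mouse left ventricle was sequenced in 18 libraries, all on the (DBA/2J x C3HeB/FeJ)F1 background. WT mice (n = 5, here and below a number of libraries) carried no transgene and had no treatment. The other 3 groups were MHC-cycD2 transgenic mice, whose cyclin D2 transgene is driven in heart muscle cells by the MHC promoter. They had a sham operation (n = 5), transverse aortic constriction, TAC (n = 3, replicates 1, 2 and 4), which loads the ventricle with pressure, or an aortocaval Shunt (n = 5), which adds a volume load. The mice were operated on at 8 weeks of age. The labels do not say which of 2 possible sham operations the sham mice had, so sham against WT joins the transgene with a sham operation, and no loaded WT mice are in the series. The labels give each library as a separate sample, and p-values therefore reflect the spread among the samples, which may in part be technical.

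Small heat shock proteins are small ATP-independent chaperones built around a conserved alpha-crystallin domain. They assemble into oligomers, hold partly unfolded proteins in solution and pass them to the HSP70 system for refolding or disposal. The heart expresses an unusually broad set of them, and several sit on the Z-disc, on desmin filaments or on the elastic part of titin. Bag3 joins Hspb8 to HSP70 and to the autophagy machinery, in a route that clears damaged filamin and other Z-disc proteins under mechanical strain. Heat shock factors switch on chaperone genes by binding heat shock elements, which are inverted repeats of the unit GAA.

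Libraries held 19297821 to 30594075 gene counts, and no pair of replicates agreed within counting noise (lowest chi-square 7.08 per gene). All 12 ventricular heart muscle markers were detected in every group, at a summed 83730 to 133500 CPM (counts scaled to a common library size by edgeR), against 41.8 to 912.7 CPM for 8 atrial markers. The transgene showed in Ccnd2, which was at 14.11 to 14.9 log2 CPM in transgenic libraries and 7.14 to 7.56 in WT. The library labelled TAC replicate 2 stood at 7.83, near WT, and results that involve TAC are therefore also given without it. Xist had 2644 to 5787 counts in TAC replicates 1 and 2 and all Shunt libraries, and 4 to 13 elsewhere, while the Y-linked Ddx3y had 0 to 9 and 1987 to 2662 counts in the same libraries. The clock gene Arntl was above its counterpart Dbp, which peaks at the opposite time of day, in all 3 TAC libraries, in sham replicates 1 and 2 and in WT replicates 1 to 3, and below it in the other libraries. Sex markers and clock genes thus followed the groups in part, and values within each class are given beside the results they touch.

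The 250 bases upstream of the RefSeq start sites (GRCm38.p6) were available for 6 of the 8 genes. Hspb2 and Cryab had no entry. Both strands were searched for the paired heat shock unit GAANNTTC, which reads the same on either strand. It is present in 6.722% of 32536 distinct upstream windows in the mouse genome. Among the 6 genes it was found upstream of Hspb1, Hspb3 and the second start site of Hspb6, and no match was found in the windows of Hspb7, Hspb8 and Bag3. The 3 windows that hold it are shown because they include those of the pair of genes with the largest rise after TAC, and of the family member with the lowest level. Capitals mark the paired unit.
Hspb1: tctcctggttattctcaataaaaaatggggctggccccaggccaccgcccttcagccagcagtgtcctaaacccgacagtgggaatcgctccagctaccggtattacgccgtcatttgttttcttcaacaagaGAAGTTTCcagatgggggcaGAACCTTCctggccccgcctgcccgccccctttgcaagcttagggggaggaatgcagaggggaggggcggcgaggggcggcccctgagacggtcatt
Hspb6: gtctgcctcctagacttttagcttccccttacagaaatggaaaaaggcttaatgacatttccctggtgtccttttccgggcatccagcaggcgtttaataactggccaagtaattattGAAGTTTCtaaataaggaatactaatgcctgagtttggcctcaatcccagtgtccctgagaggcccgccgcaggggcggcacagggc
Hspb3: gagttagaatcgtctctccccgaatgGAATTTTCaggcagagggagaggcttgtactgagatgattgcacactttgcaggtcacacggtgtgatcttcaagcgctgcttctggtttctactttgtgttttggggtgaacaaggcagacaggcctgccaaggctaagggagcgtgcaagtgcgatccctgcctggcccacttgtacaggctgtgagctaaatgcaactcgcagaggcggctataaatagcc
The Hspb1 stretch is chr5:135887669-135887918 on the plus strand, and its units lie at -117 to -110 and -97 to -90 from the start site. The Hspb6 stretch is chr7:30553063-30553267 on the plus strand, -238 to -34 from the second start site, with its unit at -120 to -113. Bases at either end that an annotated exon covers were left out there. The Hspb3 stretch is chr13:113663677-113663926, written 5′ to 3′ on the minus strand, with its unit at -224 to -217. The tail-to-tail pair TTCNNGAA, present in 7.192% of windows, was in none of the 7 windows of these genes. A 3-unit element, present in 0.47%, was in none either. These are matches of letters, and binding was not measured.

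Transcript levels per kb of exon differed widely within the family. In WT, Hspb7 was highest at 1541 ± 144 CPM per kb (SD, n = 5), followed by Cryab at 1080 ± 77.8, Hspb6 at 453 ± 21.6 and Hspb8 at 393 ± 23.8. Bag3 was at 145 ± 11.9, Hspb2 at 96.9 ± 6.41, Hspb1 at 60.8 ± 7.09 and Hspb3 at 16.6 ± 2.83 CPM per kb. No 2 neighbours in this order overlapped among the 5 WT libraries. In sham, the ranges of Hspb7 and Cryab overlapped, as did those of Bag3 and Hspb2. In Shunt, Hspb6 and Hspb8 overlapped as well. The one change of place in TAC was that of Hspb1, at 133 ± 6.0 CPM per kb (SD, n = 3), which passed Hspb2 at 119 ± 20.7, although single libraries of the 2 genes overlapped. With the length of the longest transcript in place of all exons, Cryab came out above Hspb7 in sham, TAC and Shunt, and Hspb2 above Bag3 in sham and Shunt, so the order within these pairs depends on the length used. The 8 genes together took 0.771% to 0.872% of gene counts in WT, 0.628% to 0.799% in sham, 0.992% to 1.142% in TAC and 0.593% to 0.789% in Shunt. The TAC range lay above the other 3.

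**Figure D1:**
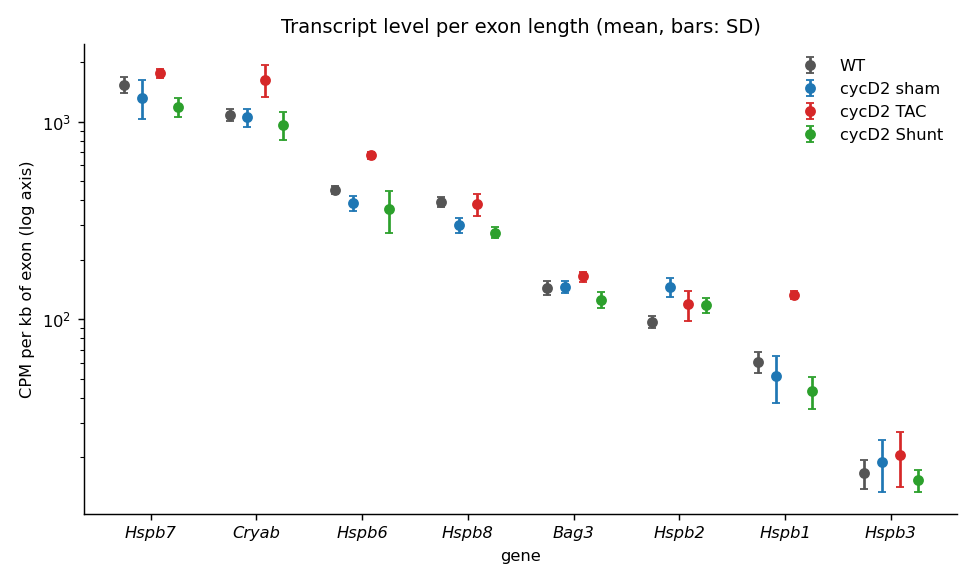
Mean level of each gene per kb of exon in the 4 groups, in CPM per kb on a log axis, with bars for the SD (n = 5, and 3 for TAC). Hspb7 and Cryab lead in every group, Hspb3 is lowest, and Hspb1 stands out by its higher level in TAC.

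The genes lie at these places in GRCm38 with the GENCODE M21 annotation, all protein coding. Hspb1 (ENSMUSG00000004951) is on chromosome 5 from 135887919 to 135889563 on the plus strand, and Hspb8 (ENSMUSG00000041548) is on the same chromosome from 116408491 to 116422864 on the minus strand. Hspb6 (ENSMUSG00000036854) and Bag3 (ENSMUSG00000030847) are on the plus strand of chromosome 7, from 30552178 to 30555443 and from 128523616 to 128546981. Hspb7 (ENSMUSG00000006221) is on the plus strand of chromosome 4 from 141420779 to 141425311, and Hspb3 (ENSMUSG00000051456), a gene of 1 exon, is on the minus strand of chromosome 13 from 113662896 to 113663676. Cryab (ENSMUSG00000032060, chromosome 9, 50751325 to 50756636, plus strand) and Hspb2 (ENSMUSG00000038086, chromosome 9, 50751078 to 50752354, minus strand) overlap on opposite strands. They share 252 exon bases, which are 30.2% of the exon bases of Hspb2 and 17.0% of those of Cryab. The library kit does not mark the strand, so reads from the shared stretch cannot be assigned to either gene, and levels of both, of Hspb2 above all, are uncertain to that extent. Of the exon bases of Hspb6, 5.31% are shared with Proser3 on the opposite strand.

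The comparison of TAC with sham asked what pressure load changes in the transgenic ventricle. Hspb1, Hspb6, Cryab, Hspb7 and Hspb8 rose after TAC, from 2.57-fold for Hspb1 to 1.28-fold for Hspb8. In each of the 5 genes all 3 TAC libraries lay above all 5 sham libraries. The share of all genes tested whose groups separate in this way was not counted, here or in the comparisons below. Separations of groups are therefore given as descriptions of single genes, with no background to weigh them against. Hspb2 fell, with overlapping groups, and Bag3 and Hspb3 did not pass the threshold, an adjusted p under 0.05 over all genes tested (edgeR's quasi-likelihood test). Thus 5 of 8 genes were called higher and 1 lower, where 16.4% and 14.5% of all genes tested were. The median log2 fold change of the 8 was 0.38, and over all genes it was 0.00669.

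Hspb1, known as Hsp27 or Hsp25, caps actin filaments and protects the cytoskeleton under stress. Its level in TAC replicates 1, 2 and 4 was 129.8, 141.8 and 138.4 CPM. The 5 sham libraries had 62.8, 70.0, 33.7, 53.6 and 45.4 CPM. The lowest TAC library was well above the highest sham library, and the 3 TAC libraries lay close together. The log2 fold change was 1.36 ± 0.179 (SE, adjusted p = 5.05e-05).

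Hspb6, or Hsp20, is a target of cAMP-dependent kinase in heart and smooth muscle. It had 1505, 1619 and 1536 CPM in TAC, and 980.9, 877.9, 810.7, 957.9 and 815.2 CPM in sham. Again the groups did not overlap, and the spread within TAC was small. The log2 fold change was 0.81 ± 0.133 (SE, adjusted p = 0.000237).

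Cryab, alpha-B-crystallin, binds desmin and titin, and its mutations cause desmin-related myopathy. The TAC libraries had 1999, 2870 and 2374 CPM, and the sham libraries 1612, 1635, 1322, 1732 and 1480 CPM. The 3 TAC libraries were all higher but spread more than for Hspb1 and Hspb6, with replicate 2 at the top. Cryab changed by 0.63 ± 0.125 on the log2 scale (SE, adjusted p = 0.00102).

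Hspb7, the cardiovascular member, takes part in actin assembly in the sarcomere. Its TAC libraries were at 5129, 4637 and 4802 CPM. In sham it fell into 2 levels, 2868 and 2705 CPM in replicates 1 and 2 and 4014, 4511 and 4236 CPM in replicates 3 to 5. The upper sham level came close to the TAC range without reaching it. The log2 fold change of 0.41 ± 0.143 (SE) had an adjusted p of 0.0377 and lost the call without sham replicate 1 or 2 or without any one of the TAC libraries (adjusted p up to 0.12).

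Hspb8 and Bag3 act as a complex. Hspb8 had 693.0, 855.2 and 684.7 CPM in TAC and 609.2, 514.9, 601.2, 648.8 and 543.4 CPM in sham, so that the lower 2 TAC libraries lay just above the highest sham library. Its log2 fold change was 0.35 ± 0.0879 (SE, adjusted p = 0.00562). Bag3 had 428.9, 441.7 and 394.9 CPM in TAC and 349.3, 353.9, 367.6, 417.5 and 379.7 CPM in sham. TAC replicate 4 of Bag3 lay within the sham range, and the difference of 0.18 ± 0.085 (SE, adjusted p = 0.127) did not pass the threshold.

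Hspb2, which binds the myotonic dystrophy kinase and pairs with Hspb3 in muscle, went the other way from its neighbour Cryab. The TAC libraries had 94.9, 84.4 and 118.1 CPM, and the sham libraries 124.4, 110.8, 113.4, 144.4 and 114.3 CPM. TAC replicate 4 lay inside the sham range. The log2 fold change was -0.29 ± 0.107 (SE, adjusted p = 0.0441), a call that was lost when any of 9 single libraries was left out (adjusted p up to 0.25). Hspb3, its partner in that pair, was at 17.3, 10.6 and 20.1 CPM in TAC and 9.92 to 20.5 CPM in sham, with full overlap and a difference of 0.11 ± 0.222 (SE, adjusted p = 0.735).

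**Figure D2:**
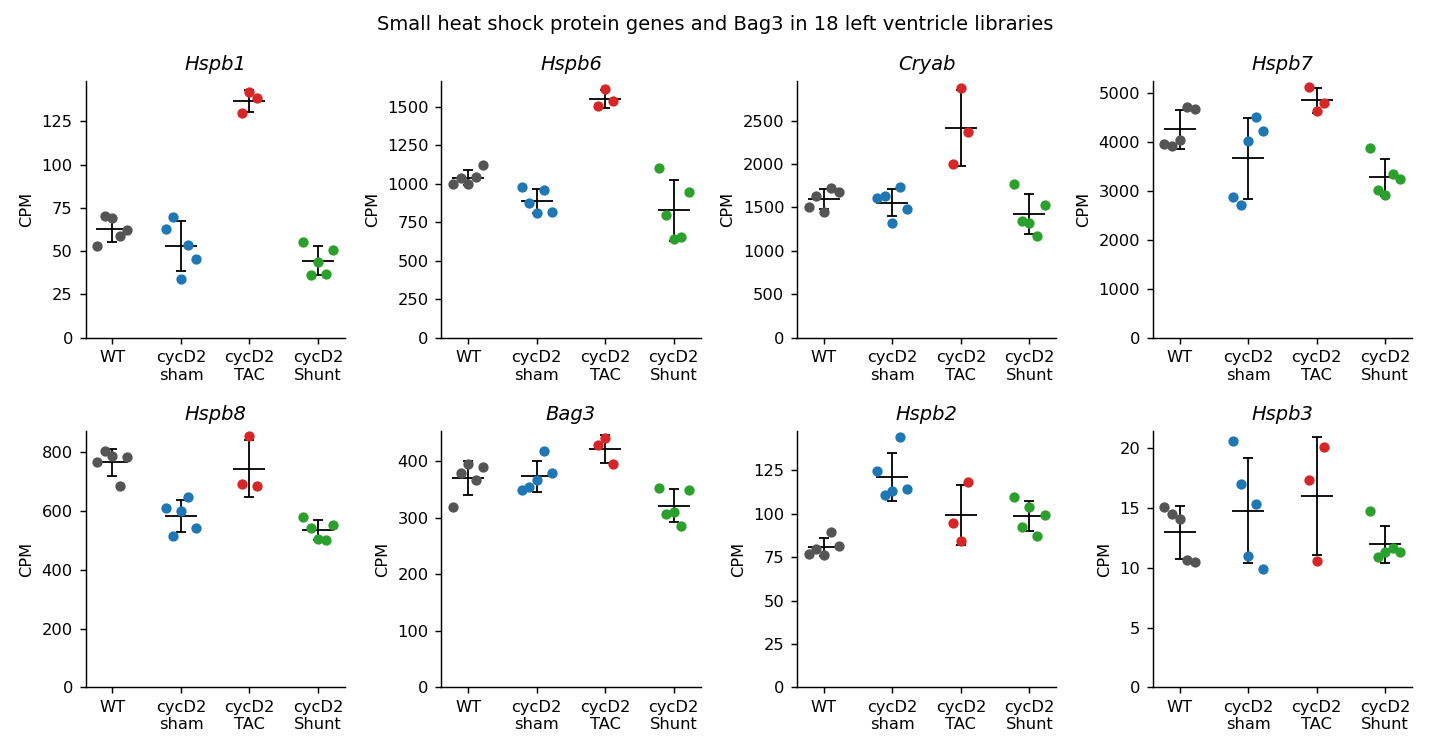
Level of each gene in CPM in every library, 1 point per library, with the mean and SD of each group as bars. In the panels of Hspb1, Hspb6, Cryab, Hspb7 and Hspb8 the 3 TAC points lie above all 5 sham points, and Shunt points lie within or below the sham range, apart from 1 point each of Hspb6 and Cryab.

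Without the library labelled TAC replicate 2, 3288 of all 14876 genes tested were called in TAC against sham, against 4600 with it. Of the 8 genes, 3 were then called: Hspb1 at 1.34 (adjusted p = 0.000362), Hspb6 at 0.78 (0.00172) and Cryab at 0.49 (0.0118). Hspb7 at 0.44 (0.0646), Hspb8 at 0.24 (0.0587) and Hspb2 at -0.19 (0.25) were then not called. Among libraries with Arntl above Dbp alone, which kept sham replicates 1 and 2, 1482 of all genes were called. Of the members, Hspb1 at 1.04 (0.00374), Hspb7 at 0.80 (0.00485), Hspb6 at 0.74 (0.00496) and Cryab at 0.57 (0.0466) were called. Hspb8 at 0.40 (0.0818) and Hspb2 at -0.25 (0.243) were not. Among libraries with few Xist counts, where TAC replicate 4 stood alone and was assumed to vary like the others, Hspb1 at 1.37 (0.0161), Hspb6 at 0.78 (0.00165) and Cryab at 0.60 (0.0153) were called. Hspb1, Hspb6 and Cryab were therefore called in each of these 3 subsets and when any single library was left out. When the Y-linked covariate was added, 483 of all genes were called. Hspb1 at 1.39 (0.0128) and Hspb6 at 0.82 (0.0386) were among them, and Cryab at 0.63 (0.0814) was not. Lost calls of members thus came beside fewer calls over all genes.

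Markers of other cells moved in the same comparison. Fibroblast markers had 8 of 10 genes higher after TAC, with a summed 4656 to 11070 CPM against 2578 to 4256 in sham, and smooth muscle and pericyte markers had 6 of 10 higher (6110 to 7423 against 3917 to 4573 CPM). Endothelial markers had 4 of 10 higher (1768 to 1996 against 1381 to 1777 CPM). Ventricular heart muscle markers had 1 of 12 higher and 6 lower (83730 to 119100 against 117200 to 133500 CPM). Macrophage markers had 1 of 10 higher (353.9 to 580.4 against 305 to 450.4 CPM). Of 7 skeletal fibre markers tested, 1 was higher and 2 were lower. The sum over the 10 listed was 3789 to 9407 CPM in TAC against 128.1 to 257.1 in sham. The median log2 fold change of the 7 was -0.0351, so the higher sum was not shared by the list as a whole. Atrial markers had 1 of 7 lower, erythroid markers 1 of 5 lower (16.6 to 35.9 against 40.2 to 431.8 CPM), and adipocyte and Schwann cell markers none called. Without TAC replicate 2, fibroblast markers had 6 higher, smooth muscle markers 5, endothelial markers 2, and ventricular markers 1 higher and 4 lower. Among the markers of all these lists only the adipocyte gene Lep was at 0 throughout TAC. Hspb1, Hspb6 and Cryab are also expressed in smooth muscle, and the part of these cells in the result was not tested. In bulk tissue, fewer cells of a type and less RNA per cell cannot be told apart.

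The comparison of Shunt with sham asked the same of volume load. None of the 8 genes passed the threshold, against 0.108% of all genes called higher and 0.134% called lower. All 8 log2 fold changes were negative, between -0.10 for Hspb6 and -0.30 for Hspb2 and Hspb3, with a median of -0.19, and the median over all genes was 0.00408. At an unadjusted p under 0.05 there were 2 of the 8, Hspb2 and Bag3, where 14.6% of all genes were, and DESeq2 and limma-voom also called none.

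The 95% intervals bound what these libraries leave possible. Hspb1 had 55.2, 36.4, 43.5, 37.1 and 50.6 CPM in Shunt, all inside the sham range, and its interval of -0.60 to 0.09 on the log2 scale leaves out a rise of the size seen after TAC. Hspb6 had 1106, 796.5, 639.4, 651.9 and 947.9 CPM, the widest relative spread of the gene in any group, and an interval of -0.35 to 0.15. Cryab at 1769, 1343, 1316, 1167 and 1528 CPM had an interval of -0.36 to 0.11. These 3 genes, called higher after TAC, each had Shunt libraries on both sides of the sham median.

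Hspb7 had 3877, 3031, 2915, 3340 and 3238 CPM in Shunt, between the 2 levels seen in sham (-0.43 to 0.11). Hspb8 was at 500 to 579.9 CPM, within and just below the sham range (-0.29 to 0.04). Bag3 was at 285.8 to 353.6 CPM, with 3 Shunt libraries below every sham library, and its interval of -0.38 to -0.06 did not reach 0, although its adjusted p was 0.209. Hspb2 at 109.5, 92.5, 104.1, 87.5 and 99.6 CPM lay below all 5 sham libraries (-0.50 to -0.10, adjusted p = 0.183). Hspb3 was at 10.9 to 14.7 CPM, inside the sham range. Xist was at 3408 to 5787 counts in Shunt and at 5 to 11 in sham, so sex and group cannot be told apart here. Among the libraries with Dbp above Arntl, which are all of Shunt and 3 of sham, none of the 8 genes was called. Hspb7 was there at -0.39 (adjusted p = 0.0824) against -0.16 over all libraries, and its 5 Shunt libraries all lay below the 4014 to 4511 CPM of the 3 sham libraries. Hspb1 at -0.0028 (0.997) and Hspb3 at -0.026 (0.939) were nearer 0 there than over all libraries.

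**Figure D3:**
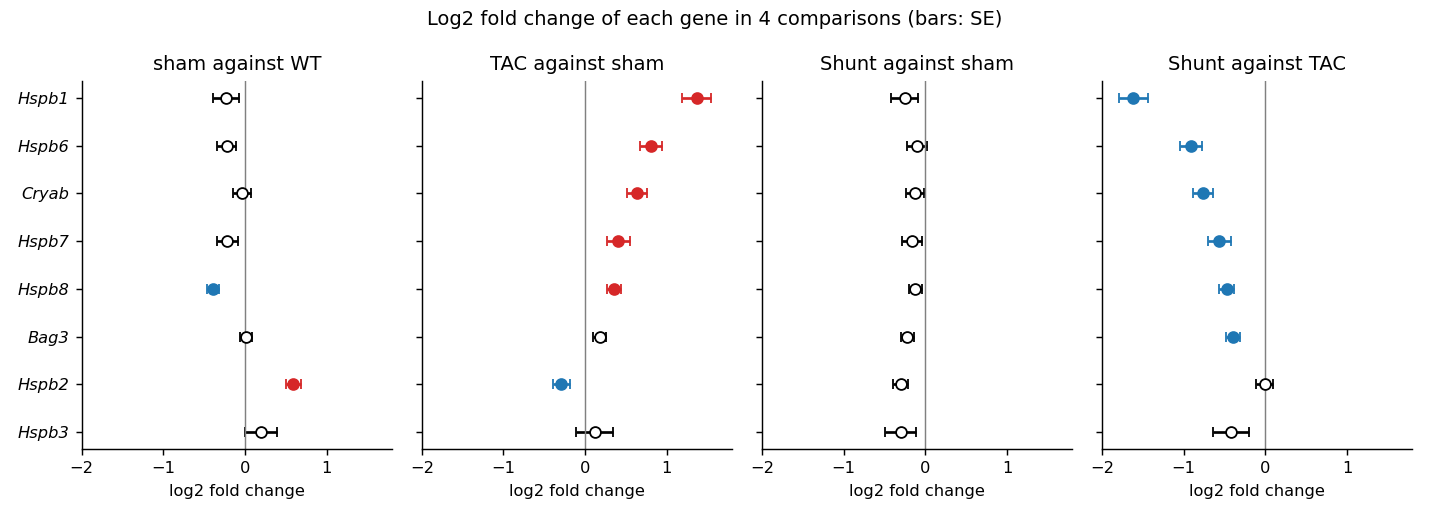
Log2 fold change of each gene in the 4 comparisons, with bars for the SE. Filled points passed an adjusted p under 0.05 (red higher, blue lower), open points did not: 5 red and 1 blue in TAC against sham, none in Shunt against sham.

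Shunt was also set against TAC directly. Hspb1, Hspb6, Cryab, Hspb7, Hspb8 and Bag3 were lower in Shunt than in TAC, and in each of the 6 no Shunt library reached the lowest TAC library. That is 6 of 8 genes called lower and none higher, where 13.6% and 13.3% of all genes were. The median log2 fold change was -0.52 against -0.00888 over all genes. Hspb1 in Shunt stood at 0.326 of its TAC level (-1.62 ± 0.179, SE, adjusted p = 2.23e-05, edgeR). Hspb6 changed by -0.91 ± 0.133 (0.000158) and Cryab by -0.76 ± 0.125 (0.000355). Hspb7 changed by -0.57 ± 0.142 (0.00685) and Hspb8 by -0.47 ± 0.0877 (0.000845). Bag3, which passed the threshold in neither load against sham, passed it here at -0.39 ± 0.0846 (0.00238), with 285.8 to 353.6 CPM in Shunt and 394.9 to 441.7 CPM in TAC. Hspb2 differed by -0.01 ± 0.106 (0.97) and Hspb3 by -0.42 ± 0.221 (0.173).

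These 6 calls were kept when any single library was left out, TAC replicate 2 included, where Hspb1 was at -1.59 (0.000179), Hspb6 at -0.88 (0.00102), Cryab at -0.62 (0.00348), Hspb8 at -0.36 (0.00845), Bag3 at -0.36 (0.0151) and Hspb7 at -0.60 (0.0168). Hspb3 was called without that library as well (-0.64, adjusted p = 0.0492). Among libraries with high Xist counts the same 6 genes were called. Every TAC library had Arntl above Dbp and every Shunt library the reverse, so clock state and group cannot be told apart in this comparison. Fibroblast markers had 7 of 10 and smooth muscle and pericyte markers 4 of 10 lower in Shunt (summed 2764 to 4194 and 3253 to 4771 CPM). Endothelial and macrophage markers had 3 of 10 lower each (1470 to 1868 and 317.6 to 382.7 CPM). Ventricular heart muscle markers had 4 of 12 higher and 1 lower (103600 to 113000 CPM) and erythroid markers 2 of 5 higher (27.9 to 558.9 CPM). Of 7 genes each, atrial markers had 1 higher, skeletal fibre markers 1 in each direction and Schwann cell markers 1 lower. No adipocyte marker was called. The skeletal fibre markers summed to 45 to 778.3 CPM in Shunt against 3789 to 9407 in TAC. Their median log2 fold change was 0.138, so the lower sum was not shared by the list as a whole. Without TAC replicate 2, fibroblast and smooth muscle markers had 3 lower each, endothelial markers 2 lower, ventricular markers 1 higher and 2 lower, and macrophage and erythroid markers none called. The part of these cells in the result was not tested.

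The comparison of sham with WT asked how the unloaded transgenic ventricle differs. Hspb2 was higher and Hspb8 was lower in sham, with no overlap between the groups for either gene, and the other 6 genes did not pass the threshold. One gene in each direction stood against 13.5% of all genes called higher and 14.9% called lower, so the share of called genes was near that of the background. The median log2 fold change of the 8 was -0.13, and over all genes it was -0.0136.

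Hspb2 was at 76.97, 79.4, 76.5, 89.7 and 81.4 CPM in WT and at 110.8 to 144.4 CPM in sham. This was a 1.503-fold difference (log2 0.59 ± 0.0922, SE, adjusted p = 0.000177). It was called both among libraries with Arntl above Dbp (0.61, adjusted p = 0.0279) and among those with Dbp above Arntl (0.55, 0.0159). Cryab, which shares exon bases with it, was at 1505, 1630, 1451, 1722 and 1678 CPM in WT and did not differ past the threshold (-0.04 ± 0.11, SE, adjusted p = 0.832). The log2 count ratio of Cryab to Hspb2 was 4.24 to 4.37 in WT, 3.54 to 3.88 in sham, 3.66 to 4.01 in Shunt and 4.33 to 5.09 in TAC, where replicate 2 was highest. Sham and Shunt thus lay below every WT and TAC library in this ratio, on which the shared bases also bear.

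Hspb8 was at 767.0, 803.9, 788.1, 686.3 and 783.8 CPM in WT, above all sham libraries. The log2 fold change was -0.39 ± 0.077 (SE, adjusted p = 0.00109). Within libraries with Arntl above Dbp it was -0.47 (0.0574) and within those with Dbp above Arntl -0.28 (0.0856), neither of which passed the threshold in these smaller sets. Its partner Bag3 was at 319.3 to 395.0 CPM in WT and did not move with it (0.01 ± 0.074, SE, adjusted p = 0.922, interval -0.15 to 0.17). The log2 count ratio of Hspb8 to Bag3 was 0.90 to 1.26 in WT, 0.52 to 0.80 in sham, 0.69 to 0.95 in TAC and 0.66 to 0.82 in Shunt. Only TAC replicate 2 reached into the WT range.

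Hspb6 was lower in all 5 sham libraries than in any WT library (999.8 to 1122 CPM in WT), but its log2 fold change of -0.23 ± 0.118 (SE, adjusted p = 0.159) did not pass. It did when sham and WT were fitted alone (-0.22, adjusted p = 0.0246). Hspb7 with 3920 to 4729 CPM in WT, Hspb1 with 52.8 to 70.1 CPM and Hspb3 with 10.48 to 15.1 CPM overlapped with sham. Endothelial markers had 6 of 10 genes lower in sham and atrial markers 4 of 7 higher (summed 111.9 to 912.7 CPM against 41.8 to 88.3 in WT). Skeletal fibre markers had 5 of 7 higher, at low levels, and 1 lower, Acta1, which is named after its value was seen (summed 128.1 to 257.1 CPM against 791.6 to 1976 in WT). Smooth muscle and pericyte markers had 2 of 10 lower, ventricular heart muscle markers 2 of 12 in each direction and Schwann cell markers 1 of 7 lower. Fibroblast, macrophage, adipocyte and erythroid markers had none called. The part of these cells in the differences was not tested. The share of reads without a gene also differed without overlap, 19% to 22.8% in WT and 14.9% to 17.9% in sham.

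Some members differed between libraries of 1 group along with the clock genes. In sham, Hspb7 was at 2705 to 2868 CPM in the 2 libraries with Arntl above Dbp and at 4014 to 4511 CPM in the 3 with Dbp above Arntl. In WT the same split gave 3920 to 4046 CPM in 3 libraries and 4669 to 4729 CPM in 2. Hspb7 was thus higher with Dbp above Arntl in both groups, without overlap. Hspb3 went the other way, with 14.1 to 15.1 against 10.48 to 10.67 CPM in WT and 17.0 to 20.5 against 9.92 to 15.3 CPM in sham. Hspb1 was higher with Arntl above Dbp in sham, at 62.8 to 70.0 against 33.7 to 53.6 CPM, and overlapped in WT. These splits were seen in the data, rest on 2 or 3 libraries a side, and carry no test. Compared within the Arntl class, of 2 sham and 3 WT libraries, Hspb7 was lower in sham than in WT (-0.50, adjusted p = 0.03). It was not called within the Dbp class (-0.13, adjusted p = 0.5) or over all libraries (-0.22, adjusted p = 0.206). With the clock covariate in the edgeR fit of all libraries, Hspb7 was called lower in sham against WT (-0.355, adjusted p = 0.0042). In that fit it was at 0.73 in TAC against sham (0.000283) and -0.22 in Shunt against sham (0.185). In Shunt against TAC, where clock state and group cannot be told apart, it was at -0.95 (0.000189).

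**Figure D4:**
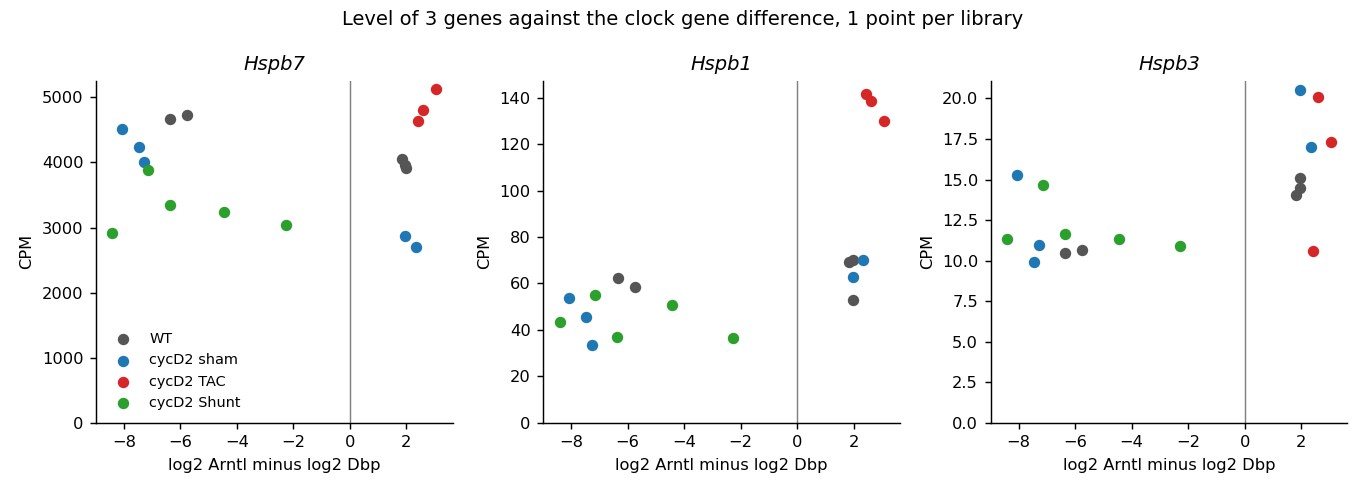
Level of Hspb7, Hspb1 and Hspb3 in CPM against the log2 difference of Arntl and Dbp, 1 point per library. In WT and sham, Hspb7 is lower on the right of the line and Hspb3 higher, TAC points all lie on the right and Shunt points all on the left.

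The wider chaperone system was read from lists of known genes, also chosen with earlier results of these data known. Over all genes tested, 16.4% were called higher and 14.5% lower after TAC, and lists with a few calls, such as the DNAJ, HSP90 and Bag3 partner lists, lay near these shares. After TAC, the HSP70 and HSP110 list had 4 of 11 tested genes higher and none lower, with a median of 0.37. Hsph1, an HSP110 exchange factor, rose by 1.25 ± 0.271 on the log2 scale (SE, adjusted p = 0.00256), Hspa1l by 0.94 ± 0.237 (0.00572), Hspa4l by 0.37 ± 0.0939 (0.00575) and Hspa4 by 0.25 ± 0.065 (0.00803). Among 10 cytosolic DNAJ co-chaperones, which deliver clients to HSP70, 2 were higher, Dnaja4 at 0.80 ± 0.0846 (8.5e-06) and Dnajb6 at 0.36 ± 0.113 (0.0231). Of 13 genes of the HSP90 system, Hsp90aa1 at 1.01 ± 0.243 (0.00505) and Ahsa2 at 0.62 ± 0.137 (0.00247) were higher, and the immunophilin Fkbp4 was lower at -0.59 ± 0.109 (0.000526). The heat shock factor list had 4 genes tested, the factors Hsf1, Hsf2 and Hsf4 and the factor-binding protein gene Hsbp1. Of these Hsf4 was lower (-0.38 ± 0.137, 0.0433) and none was higher. No gene of that list was called without TAC replicate 2 or with Arntl above Dbp alone. Hspb11, the only other family member tested of 4 listed, did not pass (0.24 ± 0.169, 0.306).

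Of 13 genes in the list of chaperonins of mitochondria and cytosol and their partners, 2 were higher and 4 lower after TAC. The 4 lower genes all act in mitochondria and the 2 higher ones are subunits of the cytosolic chaperonin TRiC, a division read from the called genes after their values were seen. The first by p were Trap1 (-0.41 ± 0.074, adjusted p = 0.000502), Hspa9 (-0.33 ± 0.063, 0.000784) and Hspd1 (-0.37 ± 0.0882, 0.00423) and the TRiC subunit Cct8 (0.20 ± 0.0561, 0.00999). Of 5 other BAG genes, Bag2, an inhibitor of the ubiquitin ligase Stub1, was the one called, at 0.70 ± 0.106 (0.000115).

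The partners of Bag3 in selective autophagy had 4 of 15 genes higher and 2 lower after TAC, with a median of 0.08. Those that rose were the client filamin C, Flnc, at 1.10 ± 0.13 (adjusted p = 1.8e-05) and the synaptopodins Synpo2l at 1.87 ± 0.248 (6.24e-05), Synpo2 at 0.53 ± 0.12 (0.00274), which recruits the Bag3 complex to the membrane, and Synpo at 0.55 ± 0.141 (0.00713). Filament and Z-disc clients of the small heat shock proteins had 10 of 17 higher and 1 lower, with a median of 0.41. They included the intermediate filament proteins desmin, Des, at 0.90 ± 0.11 (2.39e-05) and synemin, Synm, at 1.05 ± 0.127 (2.17e-05), and the Z-disc protein Csrp3 at 0.54 ± 0.0821 (0.000123). Flnc stands in both lists, and Des is also among the smooth muscle markers. Without TAC replicate 2, 1766 of all 14876 genes tested were called higher and 1522 lower. The client list then still had 10 higher and 1 lower, the partners 4 higher and none lower, and the HSP70 list 4 higher. The chaperonins had 4 higher and 4 lower, and the DNAJ list 1 in each direction. Among libraries with Arntl above Dbp, 829 of all genes were called higher and 653 lower. The clients then had 6 higher and 1 lower, the partners 3 higher, the chaperonins 1 lower and the HSP70 list none called. With few Xist counts, the clients had 8 higher and 1 lower, the partners 3 higher and the HSP70, HSP90 and chaperonin lists none called.

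**Figure D5:**
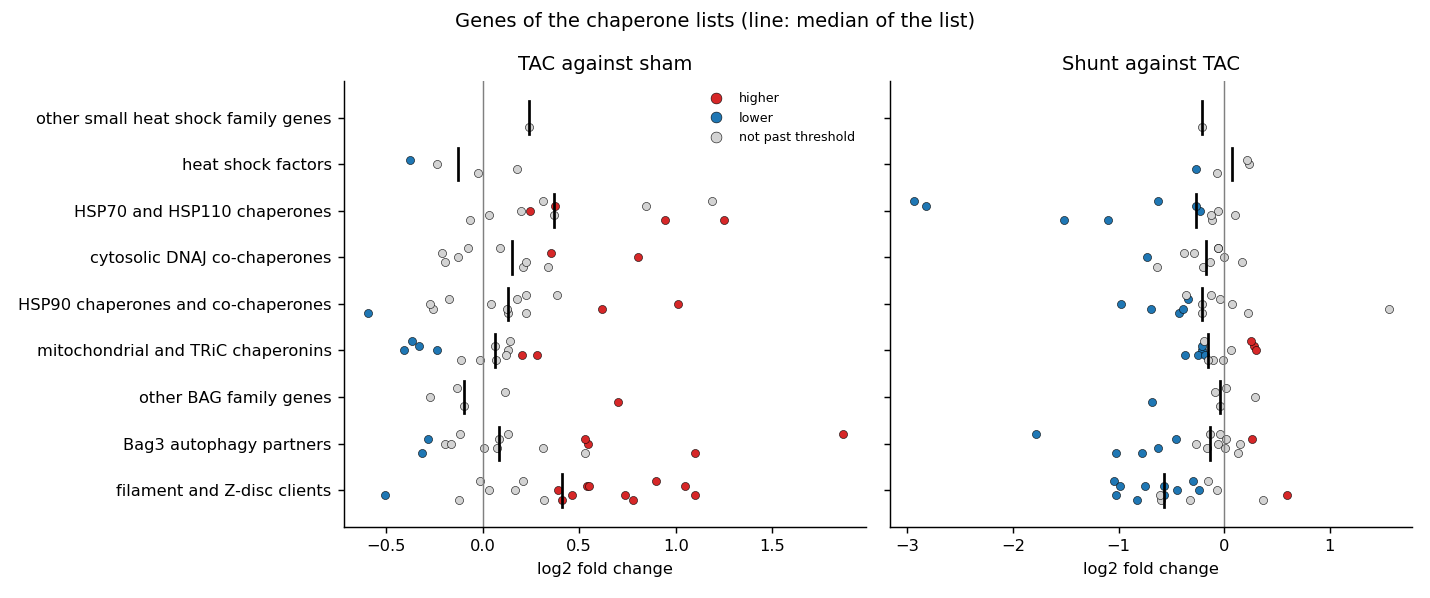
Log2 fold change of each tested gene of 9 chaperone lists in TAC against sham and in Shunt against TAC, with the median of each list as a black line. Red and blue points passed an adjusted p under 0.05, grey points did not. After TAC the filament and Z-disc clients have 10 red points and 1 blue, and in Shunt against TAC 1 red and 10 blue.

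None of these 9 lists had a gene past the threshold in Shunt against sham. In Shunt against TAC, where 13.3% of all genes were called higher and 13.6% lower, the HSP70 list had 7 of 11 genes lower, led by Hsph1 (-1.52 ± 0.271, SE, adjusted p = 0.000863), Hspa1l (-1.10 ± 0.236, 0.00228), Hspa4 (-0.23 ± 0.065, 0.0143) and Hspa8 (-0.63 ± 0.178, 0.0145). The 2 leftmost points of that list, named here after their values were seen, are the near-identical copies Hspa1a and Hspa1b, whose reads may be split between them and are uncertain. The HSP90 system had 5 of 13 lower, with Hsp90aa1 at -0.98 ± 0.243 (0.00735), Hsp90ab1 at -0.34 ± 0.0726 (0.00227), Ahsa1 at -0.43 ± 0.0938 (0.00269) and Ahsa2 at -0.69 ± 0.137 (0.0013). Filament and Z-disc clients had 10 of 17 lower and 1 higher, with Des at -1.04 ± 0.11 (1.04e-05) and Flnc at -1.03 ± 0.13 (4.29e-05). Partners of Bag3 had 5 of 15 lower and 1 higher, chaperonins 5 of 13 lower and 3 higher, and Bag2 fell by 0.68 on the log2 scale (0.000224). Dnaja4 (-0.73 ± 0.0845, 2.35e-05) and Hsf1, the main factor of the heat shock response (-0.27 ± 0.0921, 0.0383), were the ones called in their lists. Without TAC replicate 2, 1325 of all genes were called higher and 1412 lower. The HSP70 list then had 4 genes lower and the clients 11, and the chaperonins 1 higher and 6 lower. The partners had 5 lower and none higher, and no heat shock factor was called. Among libraries with high Xist counts, 1255 of all genes were called higher and 1488 lower. The HSP70 list had 6 lower there, the DNAJ list 3, the clients 6 and the heat shock factors none. The HSP90 list then had 1 higher and 6 lower, the partners 2 and 3, and the chaperonins 3 and 1. Shunt and TAC were each set against the same sham libraries above, so the 3 comparisons are not independent.

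Sham against WT had calls in 8 of the 9 lists, where 13.5% of all genes were called higher and 14.9% lower. Cytosolic DNAJ co-chaperones had 4 of 10 lower and none higher: Dnaja4 (-0.44 ± 0.0748, SE, adjusted p = 0.000367), Dnajc7 (-0.27 ± 0.0497, 0.000613), Dnajb6 (-0.52 ± 0.0994, 0.000893) and Dnaja2 (-0.26 ± 0.0829, 0.0243). The HSP70 list had Hsph1 (-0.99 ± 0.243, 0.00641) and Hspa4l (-0.51 ± 0.0823, 0.000242) lower and Hspa1l higher (0.66 ± 0.222, 0.0336). The heat shock factor list had Hsf2 (0.59 ± 0.103, 0.000457) and Hsf4 (0.41 ± 0.118, 0.0143) higher of 4 genes tested, Hsbp1 included. Partners of Bag3 had 3 of 15 higher, the ubiquitin ligase Stub1 (0.33 ± 0.0871, 0.00863), Map1lc3a and Synpo2l. Of the 5 other BAG genes, Bag4 (0.33 ± 0.104, 0.0249) and Bag6 (0.20 ± 0.0648, 0.026) were higher and Bag2 was lower (-0.43 ± 0.0935, 0.00217). Clients had 2 of 17 higher, Plec and Nebl. The HSP90 list had 1 of 13 genes in each direction and the chaperonins 2 higher and 1 lower of 13. Among libraries with Arntl above Dbp, 480 of all 14876 genes tested were called higher and 660 lower. In each of the HSP70, DNAJ and chaperonin lists 1 gene was then called lower. There 1 chaperonin gene was higher, and no gene was called in the other 6 lists. Among libraries with Dbp above Arntl, 949 of all genes were called higher and 853 lower. The heat shock factors then had 2 higher, the HSP70 list 2 and the DNAJ list 1 lower. The HSP90 list and the chaperonins had 1 higher each, and the other 4 lists none.

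The genes most like each member across the 18 libraries were ranked by Pearson's r of log2 CPM among 11453 protein-coding genes. These values share group differences, library depth and clock state, so r within groups, from residuals of the group means, is given beside r. Hspb1 was closest to Hyal2 (0.925 over all libraries, 0.689 within groups), Dynll1 (0.922, 0.82) and Cct8 (0.917, 0.768). Hspb6 was closest to Grrp1 (0.94, 0.87), Rrp12 (0.939, 0.835) and Cox19 (0.932, 0.88). Cryab was closest to Ifitm2 (0.935, 0.871), Ctsz (0.926, 0.78) and Surf4 (0.924, 0.795). Hspb8 was closest to Parp6 (0.959, 0.886), Enho (0.952, 0.764) and Kcnj14 (0.945, 0.749). Within groups these values were lower than over all libraries for these 4 genes.

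Hspb2 had the highest likeness of any member, to Dnajc4 (0.969 over all libraries, 0.917 within groups), Hint1 (0.958, 0.893) and the ribosomal protein Rplp0 (0.95, 0.86). Hspb3 followed Emg1 (0.907, 0.926), Tuba8 (0.885, 0.865) and Timm9 (0.881, 0.927), about as closely within groups as over all libraries. Hspb7 was nearest to Gnl1 (0.858, 0.763), the sarcomere gene Mybpc3 (0.847, 0.745) and Prpsap1 (0.846, 0.698), and Bag3 to Nol3 (0.838, 0.456), Rab35 (0.834, 0.642) and Psmc4 (0.814, 0.757). Between members, Hspb6 and Cryab had the highest r at 0.922 (0.782 within groups), followed by Hspb1 and Hspb6 at 0.905 (0.554) and Hspb1 and Cryab at 0.90 (0.629). The complex partners Hspb8 and Bag3 had 0.646 (0.53) and the overlapping pair Hspb2 and Cryab 0.0546 (0.362).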

How the data were processed

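RNA of the mouse left ventricle was measured in 18 libraries. The values the authors deposited are raw read counts per Ensembl gene, 1 table per library, with no normalisation. The submitters' processing notes name STAR 2.3.0e and HTSeq 0.6.1p1, further DESeq2 1.8, SAMtools 0.1.19, CASAVA 1.8.2 and FastQC, and the build GRCm38. The annotation release and strand setting are not given in the sources used here. The 5 summary lines of each table were left out.

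Low counts were filtered by filterByExpr of edgeR (by group, minimum count 10). Libraries were scaled by TMM and fitted over all 18 libraries with 1 mean per group in edgeR 4.0.16 (quasi-likelihood F test, R 4.3.3). P-values were adjusted by Benjamini-Hochberg over 14876 genes, with a threshold of 0.05. Each SE is the absolute log2 fold change divided by the root of the F statistic, and the 95% intervals use 14 residual degrees of freedom. CPM are counts computed here from library size and TMM factor. The method was tested on simulated data. Symbols and lengths came from GENCODE M21 and upstream sequences from RefSeq.

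The genes and lists were chosen with earlier results of these data known. All 8 genes are named. Of each pathway list, up to 4 called genes with the smallest p are named per comparison, of which the text gives most. For lists with none called it gives counts only. Likeness names the 3 protein-coding genes with the highest r, at a mean log2 CPM of at least 1.

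Other settings were DESeq2 1.42.0, limma-voom (limma 3.58.1), relative log expression scaling, 2 other filters, estimation that is not robust, a replicate block, each pair of groups alone, clock, Y-linked and atrial covariates, subsets by clock genes and by Xist counts (split at 1000), and leaving out each library. Counts over the lists in these subsets and without TAC replicate 2 were added after the data were seen. Pairing by replicate number was examined through the residual correlation of same-numbered libraries. In TAC and sham it came to 0.129, 0.151 and 0.157, above the limit of 0.1. In that comparison the same-numbered sham library was the closest one only for TAC replicate 4. The main tests used no pairing, and the replicate block was run as another setting. In the other comparisons at least 1 value missed the limit. In Shunt against TAC the values were 0.17, 0.139 and 0.0928, and the same-numbered library was the closest for replicates 1, 2 and 4. It was also the closest for replicates 2 and 4 in sham against WT and for replicates 2 and 3 in Shunt against sham.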

Additional observations from a re-analysis of the deposited data

Results flagged for a closer look

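Of 24 sets of values tested, each 1 gene in 1 group of 5 libraries, 1 had a library far from the others. Hspb3 was at 14.69 CPM in Shunt replicate 1, and the next highest Shunt library was at 11.62 CPM, a gap of 0.809 of the whole range. Chance alone gives about 1 such library in 20 groups.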

How the results depend on the processing

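The lowest of these genes, Hspb3, had 224 counts or more in every library. TAC had 3 libraries, and sex markers and clock genes follow the groups in part. Member calls were 2 in sham against WT, 6 in TAC against sham, 0 in Shunt against sham and 6 in Shunt against TAC. Among other settings, they became 1 in sham against WT among libraries with Dbp above Arntl. In the same comparison they became 3 with the 2 groups alone or with the clock covariate. In TAC against sham they became 2 with the Y-linked covariate and 5 with the clock or the atrial covariate. They became 4 there without the low-count filter, with the 2 groups alone or with Arntl above Dbp. Leaving out 1 library gave 2 to 2, 3 to 6, 0 to 0 and 6 to 7, and the 3 was without TAC replicate 2. Genes called of all tested were 4227, 4600, 36 and 4015. They moved to 1140 and 1802 in sham against WT (Arntl above Dbp and the reverse). In TAC against sham they moved to 483 with the Y-linked covariate, 1482 with Arntl above Dbp and 929 with few Xist counts. In Shunt against sham they moved to 233 with DESeq2, 58 with the clock covariate, 0 with the Y-linked covariate and 59 with Dbp above Arntl, and in Shunt against TAC to 2127 with the clock covariate. Leaving out 1 library gave 3373 to 4529, 3288 to 4891, 21 (without sham replicate 4) to 92 (without TAC replicate 4) and 2737 to 4364. The replicate block gave 4242, 4129, 43 and 3393 genes and 2, 6, 0 and 6 members, and changed no member's call. The cause of these shifts was not tested.

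Signs turned only for members that were not called. In sham against WT, Hspb1 was at 0.062, Cryab at 0.098 and Bag3 at -0.041 with Arntl above Dbp, and Bag3 at -0.0153 with the clock covariate. In TAC against sham, Hspb3 was at -0.18 with the clock covariate and -0.24 with Arntl above Dbp. In Shunt against sham, the Y-linked covariate gave 0.16 for Hspb2 and 0.33 for Hspb3. In Shunt against TAC, Hspb2 was at 0.0024 with limma-voom, 0.023 with the replicate block, 0.19 with the Y-linked covariate and 0.14 with high Xist counts, and Hspb3 at 0.0254 with the clock covariate. Leaving out 1 library, the ranges that crossed 0 were -0.0704 to 0.0156 for Cryab and -0.0363 to 0.0536 for Bag3 in sham against WT, -0.093 to 0.34 for Hspb3 in TAC against sham, and -0.11 to 0.13 for Hspb2 in Shunt against TAC. In TAC against sham, Hspb2 lost its call in 7 of the other settings, Hspb7 in 4, Hspb8 in 3 and Cryab in 1, the Y-linked covariate (0.63, adjusted p = 0.0814), while Hspb1 and Hspb6 kept theirs in all that were run.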
